A study of Homo sapiens with 9 samples.

Results

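The ligands, receptors and SMAD proteins of the TGF-beta pathway were examined in RNA-seq tables of DU145 cells in which FZD6 was knocked down. The 9 genes TGFB1, TGFB2, INHBA, TGFBR1, TGFBR2, SMAD2, SMAD3, SMAD4 and SMAD7 were chosen by symbol, and the level of each was the sum of FPKM (fragment number scaled to transcript length and library size) over its RefSeq transcripts. All 9 were found among the 27860 genes of the tables, and 8 of them had a mean of at least 1 FPKM and were tested together with 12509 genes in all. The exception was INHBA. DU145 is a long-established line of human prostate carcinoma cells, and FZD6 is a Frizzled receptor for Wnt ligands. The libraries comprised 3 of cells with the scramble shRNA, 3 with FZD6 shRNA1 and 3 with FZD6 shRNA2. All 9 libraries were from this 1 line, each with an shRNA and with the genotype labelled WT, and the comparison of 2 hairpins asks which changes follow FZD6 knockdown with either of them. The sources used here do not say whether the 3 libraries of a group came from separate infections or cultures, so p-values measure the spread between these libraries, which may be technical.

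TGF-beta ligands are secreted in a latent form and, once released, bind the type II receptor TGFBR2, which recruits and phosphorylates the type I receptor TGFBR1. The active receptor phosphorylates SMAD2 and SMAD3, which join SMAD4, enter the nucleus and regulate transcription, while SMAD7 is induced by the pathway and inhibits its receptors. INHBA encodes a subunit of activin, a related ligand that also acts through SMAD2 and SMAD3. In epithelial cells the pathway is known for restraining proliferation, and in advanced carcinomas also for promoting invasion and the mesenchymal state.

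In GRCh38.p14 (RefSeq), the ligand genes TGFB1, TGFB2 and INHBA lie at chr19:41330323-41353922, chr1:218345336-218444619 and chr7:41685114-41705406. The receptor genes TGFBR1 and TGFBR2 lie at chr9:99103647-99154192 and chr3:30606356-30694142. SMAD3 lies at chr15:67065602-67195169, and SMAD2, SMAD7 and SMAD4 share chromosome 18, at 47808957 to 47930872, 48919853 to 48950965 and 51030213 to 51085042.

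The labels and the line were checked first. FZD6 was 20.9, 20.5 and 20.0 FPKM in the scramble libraries, 9.47, 10.2 and 9.80 FPKM with shRNA1, and 7.84, 8.79 and 7.69 FPKM with shRNA2. The mean fell by 52.1% with shRNA1 and fell by 60.5% with shRNA2, and the level with shRNA2 was below that with shRNA1 by limma (log2 fold change −0.25, adjusted p = 0.0273). Of 5 epithelial markers, all had a median of at least 1 FPKM, whereas KLK3, KLK2 and TMPRSS2 stayed below 0.05 FPKM and none of 6 fibroblast, 4 leukocyte, 4 neuroendocrine or 3 endothelial markers reached 1 FPKM at the median. The summed epithelial markers were 666 to 692 FPKM in scramble, 714 to 728 FPKM with shRNA1 and 665 to 692 FPKM with shRNA2. The depth implied by the deposited bounds was 31.6 to 39.5 M fragments per library. Replicate 2 of shRNA2 stood apart, since without it the number of genes called for shRNA1 rose from 2357 to 3538.

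The start regions of TGFB1 and TGFB2 are shown because the levels of these ligands moved by different amounts with shRNA2. The windows are from RefSeq (GRCh38.p14) and hold 250 bases before and 50 bases after the start site used by the most abundant transcript of each gene in the tables. Capitals mark matches, on either strand, to the GC box GGGCGG in TGFB1 and to the TATA box TATAAA, the E-box CACGTG and the half-site of the cyclic AMP response element ACGTCA in TGFB2.
TGFB1, chr19:41353873-41354172, minus strand: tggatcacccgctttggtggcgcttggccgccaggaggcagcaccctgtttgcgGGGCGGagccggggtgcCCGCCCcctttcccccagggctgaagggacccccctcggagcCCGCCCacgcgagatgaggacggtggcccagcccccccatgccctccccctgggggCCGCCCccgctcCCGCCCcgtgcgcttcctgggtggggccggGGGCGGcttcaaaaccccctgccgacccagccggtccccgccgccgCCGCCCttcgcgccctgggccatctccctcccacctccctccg
TGFB2, chr1:218345086-218345385, plus strand: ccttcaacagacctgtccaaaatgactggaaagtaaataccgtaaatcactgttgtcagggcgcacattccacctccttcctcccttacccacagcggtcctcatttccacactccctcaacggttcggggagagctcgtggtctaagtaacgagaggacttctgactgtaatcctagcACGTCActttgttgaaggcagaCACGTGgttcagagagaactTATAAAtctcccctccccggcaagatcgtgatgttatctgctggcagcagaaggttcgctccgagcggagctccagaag
The TGFB1 window is 77.3% G and C and holds 7 GC boxes, while the TGFB2 window is 51.7% G and C, holds none, and has 1 match each to the other motifs, with the TATA box 29 bases upstream of the start. Among 35116 RefSeq windows of the same 300 bases, 45.0% hold the GC box, 11.5% the TATA box, 7.26% the E-box and 7.98% the half-site. The median window is 58.7% G and C.

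In the scramble libraries the members differed widely in level, which FPKM allows to be compared per length. TGFB1 was the highest at 76.3 ± 3.54 FPKM (SD, n = 3), above 90.7% of the tested genes. It was followed by SMAD3 (25.8 ± 0.704 FPKM), TGFBR2 (24.1 ± 0.267 FPKM), SMAD2 (15.0 ± 0.285 FPKM), TGFB2 (11.6 ± 0.138 FPKM), TGFBR1 (8.90 ± 0.643 FPKM), SMAD4 (6.36 ± 0.398 FPKM) and SMAD7 (1.82 ± 0.257 FPKM). The ranges of neighbours in this order did not overlap in scramble. The order was the same with shRNA1, again without overlap. With shRNA2, the mean of TGFB2 was below that of TGFBR1, and 2 pairs of neighbours overlapped, SMAD3 with TGFBR2 and TGFBR1 with TGFB2. INHBA was listed at 0 in 3 libraries and reached at most 0.0131 FPKM in the other 6, with a lower bound of 0 in all 9, so it was at or near the limit of detection in every group.

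**Figure D1:**
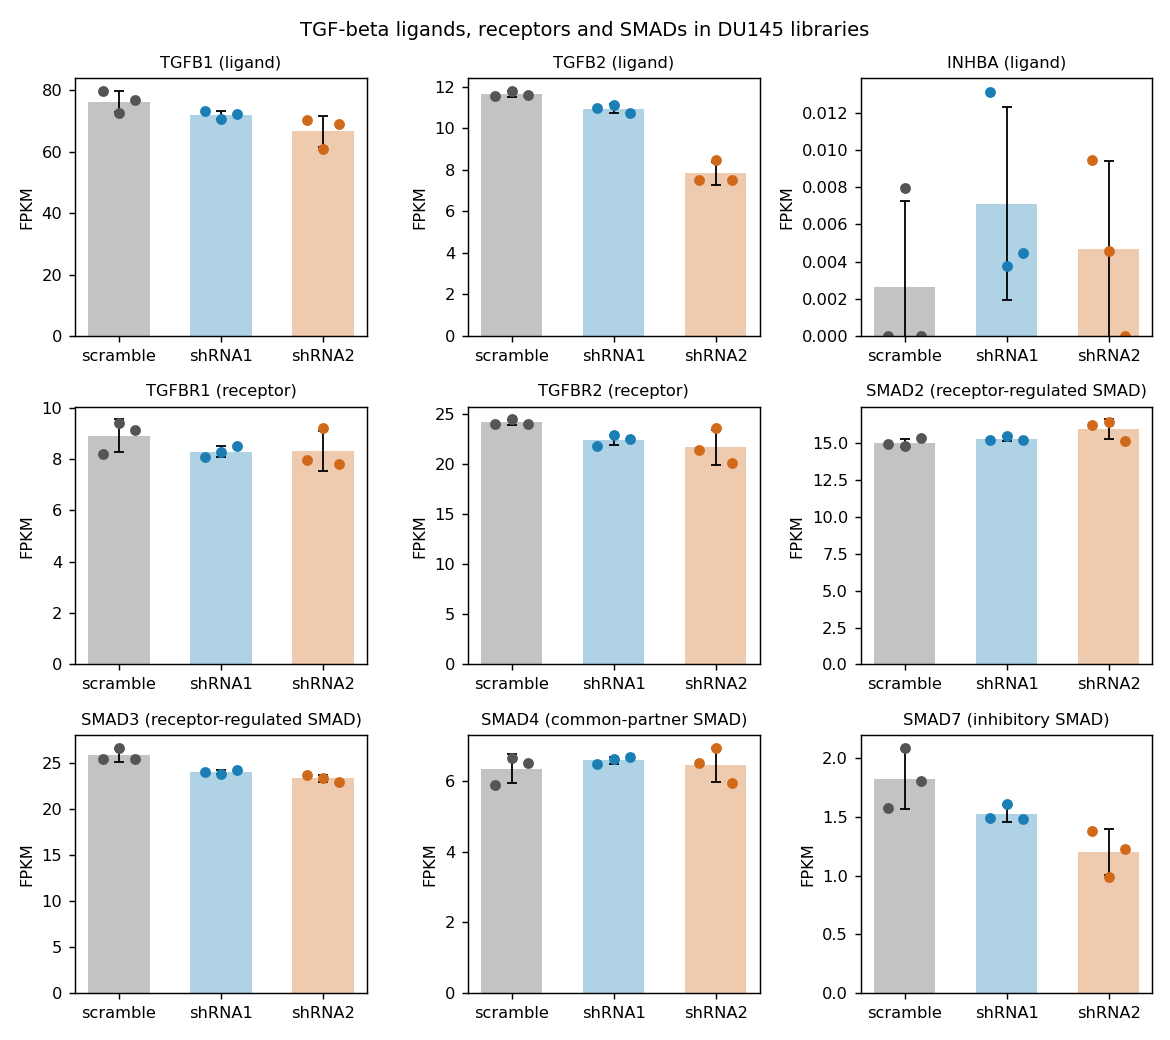
Levels of the 9 genes in FPKM (vertical axis, from 0, scaled for each panel) in the scramble, shRNA1 and shRNA2 groups. Points are libraries, bars are means and error bars are SD (n = 3). TGFB2 with shRNA2 lies between 7.49 and 8.46 FPKM, below all scramble and shRNA1 libraries, and the INHBA panel spans only 0 to 0.0131 FPKM.

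Across the 8 tested members, 1 was called by limma (adjusted p under 0.05) in knockdown against scramble and it was lower, where 20.6% of all tested genes were called. With shRNA1 the count was 1 of 8 against 18.8% of all genes, and with shRNA2 it was 4 of 8 against 26.7% of all genes, all lower. These shares of all genes hold both directions. Of the 12509 genes, 888 were called as lower in knockdown, 899 with shRNA1 and 1422 with shRNA2. The median log2 fold change of the members was −0.13 in knockdown, −0.09 with shRNA1 and −0.15 with shRNA2, and that of all tested genes was 0.03 in each. Of the 8, 6 lay below 0 in each of these comparisons. The 2 shRNA comparisons share the scramble libraries. Libraries did not overlap between knockdown and scramble for 3 of 8 members, against 25.9% of all genes. For shRNA1 this held for 3 of 8 against 46.8%, and for shRNA2 for 5 of 8 against 40.6%. The criteria of the study, at least 1.2-fold at an unadjusted p under 0.01, were applied to the gene sums used here. By them, 0 of 8 members changed in knockdown against 2.89% of all genes, a share that is not the study's own. With both directions counted together, the number of calls is therefore near the background in knockdown and with shRNA1.

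Among the ligands, TGFB2 fell with shRNA2 but was not called with shRNA1. Its level was 11.5, 11.8 and 11.6 FPKM in scramble, 11.0, 11.1 and 10.7 FPKM with shRNA1, and 7.51, 8.46 and 7.49 FPKM with shRNA2. All shRNA2 libraries were below all others, and the shRNA1 libraries were just below the scramble libraries. The mean fell by 32.8% with shRNA2 (log2 fold change −0.52 ± 0.044, SE, adjusted p = 0.000585), and the shRNA1 value was not called (−0.08 ± 0.044, adjusted p = 0.229), although without replicate 2 of shRNA2 it passed the threshold at the same size (−0.08, adjusted p = 0.0325). The difference between the hairpins was itself called, with a log2 fold change of −0.44 ± 0.044 for shRNA2 against shRNA1 (adjusted p = 0.00191), in a comparison where 6.71% of all genes were called and TGFB2 was the only member. Both shRNA2 values passed the threshold under all 19 alternatives, with adjusted p of 9.53e-05 to 0.00456 against scramble and 0.000262 to 0.0140 against shRNA1. The pooled knockdown value, −0.30 ± 0.134, was not called (adjusted p = 0.145). Nearly all of the signal was the transcript NM_003238, which holds 90.7% to 97.5% of the TGFB2 sum in every library.

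TGFB1, the most abundant ligand, was 79.7, 72.6 and 76.7 FPKM in scramble, 73.1, 70.5 and 72.1 FPKM with shRNA1, and 70.3, 60.9 and 68.9 FPKM with shRNA2. The shRNA2 libraries lay below the scramble libraries, while the shRNA1 libraries overlapped with them. The fall with shRNA2 passed the threshold (log2 fold change −0.19 ± 0.058, adjusted p = 0.0448) but kept it under only 9 of 19 alternatives, and without replicate 2 of shRNA2, the lowest library, it was −0.13 (adjusted p = 0.0517). Neither shRNA1 (−0.08, adjusted p = 0.347) nor knockdown as a whole (−0.14, adjusted p = 0.125) was called. TGFB1 has 1 accession in the tables, and the deposited bounds of its value in a library are 2.20% to 2.62% of it. Such bounds do not measure the spread between libraries. The mean of TGFB1 fell by 12.6% with shRNA2, to 66.7 ± 5.03 FPKM (SD, n = 3).

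Neither receptor was called in knockdown or with either hairpin. TGFBR2, the receptor that binds the ligand, was 24.0, 24.5 and 24.0 FPKM in scramble, 21.8, 22.9 and 22.5 FPKM with shRNA1, and 21.4, 23.5 and 20.1 FPKM with shRNA2. Every knockdown library lay below every scramble library, but the log2 fold change of −0.13 ± 0.046 was not called (adjusted p = 0.0814), and it was called under 3 of 19 alternatives. The value was −0.10 with shRNA1 (adjusted p = 0.202) and −0.15 with shRNA2 (adjusted p = 0.0667). Without replicate 2 of shRNA2, the TGFBR2 values were −0.15 for knockdown (adjusted p = 0.0369) and −0.21 for shRNA2 (adjusted p = 0.00587), and that for shRNA1 passed the threshold at −0.10 (adjusted p = 0.0452). TGFBR1, the signalling kinase of the pair, ranged from 8.18 to 9.40 FPKM in scramble and from 7.80 to 9.22 FPKM in knockdown, with overlap (−0.09, adjusted p = 0.285). Its log2 fold change was −0.09 with either hairpin, and with the length trend removed it was −0.017 in knockdown, −0.015 with shRNA1 and −0.019 with shRNA2.

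SMAD3 was the member called with both hairpins. It was 25.4, 26.6 and 25.5 FPKM in scramble, 24.0, 23.8 and 24.2 FPKM with shRNA1, and 23.6, 23.3 and 22.9 FPKM with shRNA2. The groups did not overlap, and the change was small. The mean fell by 7.00% with shRNA1 and fell by 9.83% with shRNA2. The log2 fold change was −0.12 ± 0.028 in knockdown (adjusted p = 0.0176), −0.10 with shRNA1 (adjusted p = 0.0420) and −0.14 with shRNA2 (adjusted p = 0.00946). The shRNA2 value passed under all 19 alternatives, the knockdown value under 17 and the shRNA1 value under 8. Without replicate 2 of scramble, the highest library, the knockdown value was −0.10 (adjusted p = 0.0785). In bulk RNA a lower level in each cell and fewer cells with the transcript cannot be told apart.

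**Figure D2:**
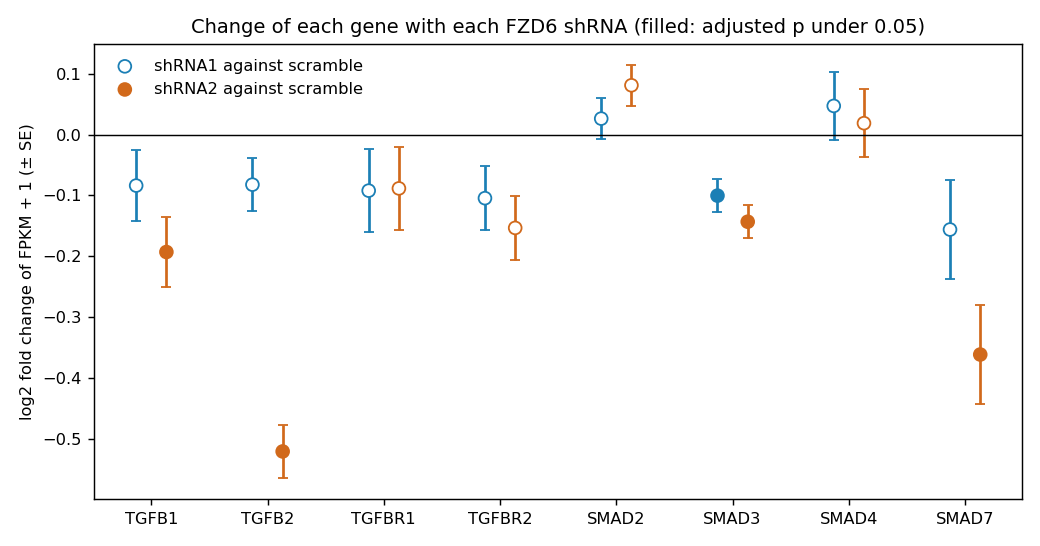
Log2 fold change of FPKM + 1 for the 8 tested genes (vertical axis) with shRNA1 and with shRNA2, each against scramble. Error bars are SE from the limma fit with 3 groups, and filled points have an adjusted p under 0.05. TGFB2 with shRNA2 is the lowest point at −0.52, and SMAD3 is filled for both hairpins.

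The SMAD3 sum rests on 3 transcripts with different start sites. The start windows of the 2 most abundant are shown because the tables quantify them apart, with capitals for the GC box GGGCGG on either strand.
SMAD3 NM_005902, chr15:67065352-67065651, plus strand: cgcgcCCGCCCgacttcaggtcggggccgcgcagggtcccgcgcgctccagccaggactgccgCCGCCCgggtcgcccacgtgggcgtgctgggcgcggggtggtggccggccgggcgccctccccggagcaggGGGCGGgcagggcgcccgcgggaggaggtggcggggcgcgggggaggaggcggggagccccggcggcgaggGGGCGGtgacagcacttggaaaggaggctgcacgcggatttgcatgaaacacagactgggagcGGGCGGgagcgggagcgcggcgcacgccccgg
SMAD3 NM_001145103, chr15:67137771-67138070, plus strand: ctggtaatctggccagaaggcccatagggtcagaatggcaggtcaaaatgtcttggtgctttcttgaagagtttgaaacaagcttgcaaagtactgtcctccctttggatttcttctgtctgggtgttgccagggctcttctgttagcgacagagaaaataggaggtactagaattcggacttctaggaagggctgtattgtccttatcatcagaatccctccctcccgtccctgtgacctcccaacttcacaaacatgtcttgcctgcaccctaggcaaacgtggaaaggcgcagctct
The first window is 80.3% G and C with 5 GC boxes, and the second, within the gene, is 49.3% G and C with none. NM_005902 was 13.6 ± 1.00 FPKM in scramble and 13.1 ± 1.16 FPKM in the 6 knockdown libraries. NM_001145103 was 8.36, 7.87 and 7.63 FPKM in scramble, 6.73, 5.57 and 3.83 FPKM with shRNA1, and 6.81, 6.16 and 7.43 FPKM with shRNA2. Its knockdown libraries were all below the scramble libraries and spread most with shRNA1, where it made up 15.8% to 28.1% of the SMAD3 sum against 29.6% to 32.9% in scramble. Its log2 fold change of −0.36 ± 0.163 was not called (adjusted p = 0.297). NM_001145102 was 4.23 ± 0.595 FPKM in scramble, 5.26 ± 0.430 FPKM with shRNA1 and 3.68 ± 0.434 FPKM with shRNA2. Of the 23 transcripts of the members, 10 were tested and 0 were called at an adjusted p under 0.05 in knockdown, where 1.26% of all transcripts were called. One of the 10, the TGFBR2 transcript NM_003242, had an unadjusted limma p under 0.05 (log2 fold change −0.17, adjusted p = 0.136).

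**Figure D3:**
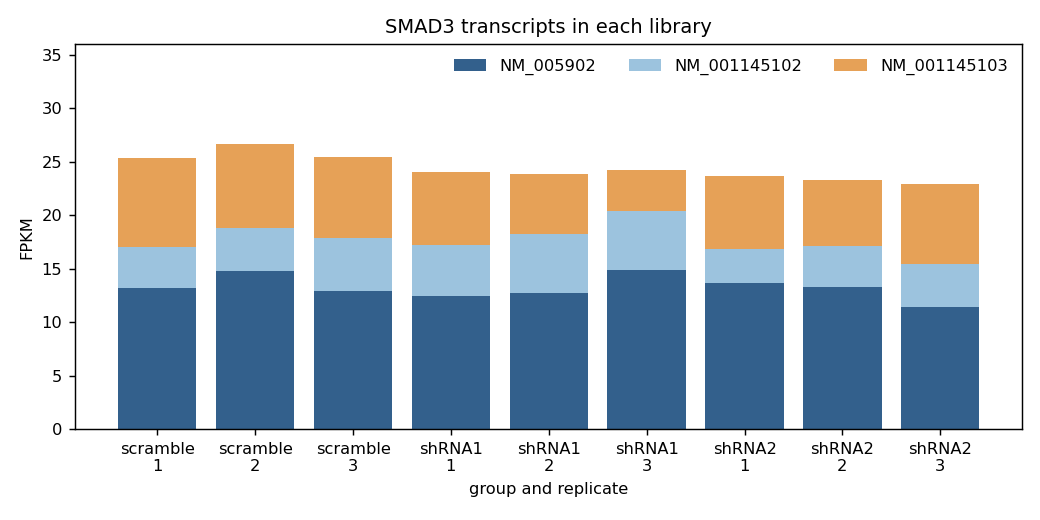
FPKM of the SMAD3 transcripts NM_005902, NM_001145102 and NM_001145103 stacked for each of the 9 libraries (vertical axis, from 0). The total is 25.4 to 26.6 FPKM in scramble and 22.9 to 24.2 FPKM in knockdown, and NM_001145103 is at its lowest, 3.83 FPKM, in replicate 3 of shRNA1.

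SMAD2 and SMAD4 did not pass the threshold in any comparison. SMAD2, the partner of SMAD3 as a receptor substrate, was 14.8 to 15.3 FPKM in scramble, 15.2 to 15.5 FPKM with shRNA1 and 15.2 to 16.4 FPKM with shRNA2 (knockdown log2 fold change 0.05, adjusted p = 0.285). SMAD4, the common partner, was 5.91 to 6.66 FPKM in scramble and 5.95 to 6.93 FPKM in knockdown (0.03, adjusted p = 0.655). The groups overlapped for both genes. Across 12295 genes with a known length, the knockdown log2 fold change fell with transcript length (Spearman rho −0.435, a description across genes of the same libraries). SMAD2 and SMAD4 have the longest transcripts of the members, 11406 bases for SMAD2 (weighted by the levels of its transcripts) and 8769 bases for SMAD4. With the length trend removed, both were called as higher in knockdown, SMAD2 by 0.21 (adjusted p = 0.00956) and SMAD4 by 0.15 (adjusted p = 0.0213). The corrected values were 0.20 and 0.18 with shRNA1 (adjusted p = 0.0229 and 0.0190) and 0.23 and 0.13 with shRNA2 (adjusted p = 0.00847 and 0.0322). The call for SMAD2 and SMAD4 therefore depends on whether the trend in length is kept, and its source was not tested.

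SMAD7, the inhibitor and a direct target of the pathway, was the lowest of the tested members. It was 1.58, 2.09 and 1.80 FPKM in scramble, 1.49, 1.61 and 1.48 FPKM with shRNA1, and 1.38, 0.989 and 1.22 FPKM with shRNA2. The shRNA2 libraries were below all others, and the shRNA1 libraries overlapped with scramble. The fall with shRNA2 was called (log2 fold change −0.36 ± 0.082, adjusted p = 0.0163, where the mean fell by 34.3%), and those with shRNA1 (−0.16, adjusted p = 0.218) and in knockdown (−0.26, adjusted p = 0.0749) were not. The shRNA2 value passed under all 18 alternatives that gave one, and with a pseudocount of 0.1 in place of 1 it was −0.57. Of its 4 transcripts, NM_001190821 had a lower bound of 0 in 6 libraries and NM_001190823 in 7, so the split of this low signal among transcripts is not resolved. SMAD7 was not called for shRNA2 against shRNA1 (−0.21, adjusted p = 0.191).

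The genes whose log2 levels followed each member most closely over the 9 libraries were RBMS1 for TGFB2 (Pearson r = 0.997), CCN5 for TGFB1 (0.985), MOV10 for SMAD3 (0.984), PTPRK for TGFBR2 (0.979), TOM1L2 for SMAD7 (0.968), ZNF883 for SMAD2 (0.966), BLM for SMAD4 (0.964) and GXYLT1 for TGFBR1 (0.961). Each is the highest r among all tested genes over libraries that share 3 groups, and is a description only.

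Other genes of the pathway were taken from 7 lists. Of 25 other ligands and extracellular regulators, 10 were tested, and 4 of these fell and 0 rose in knockdown, where 20.6% of all tested genes were called, 1690 of the 12509 as higher and 888 as lower. In knockdown and with shRNA1 all 10 had a log2 fold change below 0, and the knockdown median was −0.12 against 0.03 for all genes. With shRNA2 this held for 8 of 10, and with the length trend removed GDF11 was at 0.07 in knockdown (adjusted p = 0.424) and the list median was −0.09. THBS1, thrombospondin-1, which releases active TGF-beta from its latent complex, was 25.0 ± 0.961 FPKM in scramble and 20.0 ± 1.41 FPKM in knockdown (log2 fold change −0.31, adjusted p = 0.00864). LTBP2 (−0.29, adjusted p = 0.00567) and LTBP1 (−0.26, adjusted p = 0.00753), members of the family of latent TGF-beta binding proteins, and BMP1, a secreted protease (−0.16, adjusted p = 0.0287), were the others. These 4 were lower with each hairpin by their log2 fold change. THBS1, LTBP1 and LTBP2 were called with each, but BMP1 was not called with shRNA1 (−0.13, adjusted p = 0.0810). With the length trend removed, 3 of the 4 were still called, and LTBP1 was at −0.20 (adjusted p = 0.0534). Of 8 other receptors and coreceptors 2 were tested, ACVR1B and ACVR2A, and 0 were called, at −0.05 (adjusted p = 0.223) and −0.00140 (adjusted p = 0.981).

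Of 26 SMAD regulators and cofactors 23 were tested, 5 fell and 1 rose, a share of 26.1% against 20.6% of all genes. The shares are near each other only with both directions merged, since 1690 of all 12509 genes were called as higher and 888 as lower. With shRNA1 the share of the list was 34.8% against 18.8% of all genes, and with shRNA2 it was 39.1% against 26.7%. The acetyltransferases and SMAD coactivators EP300 and CREBBP fell, EP300 from 13.5 ± 0.490 to 10.3 ± 0.859 FPKM (log2 fold change −0.36, adjusted p = 0.00665) and CREBBP from 10.5 ± 0.292 to 8.37 ± 0.494 FPKM (−0.30, adjusted p = 0.00492). SPTBN1, a spectrin that presents SMADs to the receptors, fell as well (−0.23, adjusted p = 0.0163). USP15, a deubiquitinase that acts on SMADs and their receptor, rose from 6.79 ± 0.198 to 8.48 ± 0.830 FPKM (0.28, adjusted p = 0.0284). USP15 was not called with shRNA1 (adjusted p = 0.0703) and was just under the threshold with shRNA2 (adjusted p = 0.0476). With the length trend removed 4 were lower and 1 higher, of which 3 and 1 were also called without that step. EP300 was then at −0.23 (adjusted p = 0.00865) and CREBBP at −0.18 (adjusted p = 0.0179).

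The list of the BMP arm, the sister pathway through SMAD1, SMAD5 and SMAD9, had 10 of 18 genes tested, of which 2 were called as lower and 1 as higher, again against 20.6% of all genes. BMPR2, a BMP receptor, was at −0.22 (adjusted p = 0.0326), SMAD6, the inhibitory SMAD of that arm, at −0.19 (adjusted p = 0.0319). SMAD6 was called with neither hairpin alone (adjusted p = 0.0738 with shRNA1 and 0.0519 with shRNA2). BMPR2 was called with shRNA1 (adjusted p = 0.0227) but not with shRNA2 (adjusted p = 0.0801). With shRNA2, 0 of the 10 genes were called, against 26.7% of all genes. The gene called as higher was NOG, an antagonist of BMP ligands, at 0.852 FPKM in scramble and 1.10 FPKM in knockdown (0.18, adjusted p = 0.0495). NOG passed the filter of 1 FPKM only through the knockdown libraries and was called with neither hairpin alone (adjusted p = 0.124 and 0.0586), so its call supports no rise in this arm. The non-SMAD branch had 8 of 8 genes tested, with 2 that fell and 1 that rose, against the same share of all genes. These were XIAP (−0.18, adjusted p = 0.0230), SHC1 (−0.13, adjusted p = 0.0483) and PARD6A (0.18, adjusted p = 0.0153). SHC1 was not called with shRNA1 (adjusted p = 0.0862). With the length trend removed, 0 genes of either list were called, at the same threshold.

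Of 40 genes known to be raised by TGF-beta, 30 were tested, and 6 rose and 6 fell, a share of 40.0% against 20.6% of all genes, with a median of −0.04 against 0.03 for all genes. IL11, a cytokine, rose the most, from 10.9 ± 0.551 FPKM in scramble to 15.4 ± 0.398 FPKM with shRNA1 and 19.0 ± 0.566 FPKM with shRNA2 (knockdown log2 fold change 0.61, adjusted p = 0.00434). ANGPTL4, a secreted lipase inhibitor, rose by 0.32 on the log2 scale (adjusted p = 0.00385), as did SPHK1, sphingosine kinase, by 0.32 (adjusted p = 0.00677). THBS1 and LTBP2, given above, and the basement membrane collagen COL4A1 (−0.29, adjusted p = 0.00479) had the largest falls among the called genes of the list. With the length trend removed, 5 rose and 5 fell, and these 10 were also called without it.

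Of 6 tested genes among the best-known responses of the pathway, limma called 0 in knockdown, with 0 also at an unadjusted p under 0.05 (range 0.0550 to 0.965). PMEPA1, a feedback inhibitor, was 11.4 ± 0.302 FPKM in scramble and 11.1 ± 0.322 FPKM in knockdown (log2 fold change −0.04, adjusted p = 0.417). CCN2 was 13.3 FPKM in both (−0.00294, adjusted p = 0.980). SKIL, a SMAD corepressor, was at −0.06 (adjusted p = 0.572), the matrix protein TGFBI at −0.12 (adjusted p = 0.150) and the cell cycle inhibitor CDKN1A at 0.12 (adjusted p = 0.163). With shRNA2 alone, TGFBI fell (−0.20, adjusted p = 0.00556) and CDKN1A rose (0.19, adjusted p = 0.0108). Of 6 genes known to be lowered by TGF-beta, 5 were tested, and CDC25A, a phosphatase that drives the cell cycle, rose (0.21, adjusted p = 0.0161). In knockdown all 5 lay above 0, with a median of 0.15 against 0.03 for all genes and of 0.05 with the length trend removed. ID1, of the same list, was the nearest to 0, at 0.01 (adjusted p = 0.897). With shRNA1, 4 of 5 lay above 0, and ID1 was at −0.04. With the length trend removed, ID1 was at −0.10 in knockdown (adjusted p = 0.134) and ID2 at 0.00035.

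**Figure D4:**
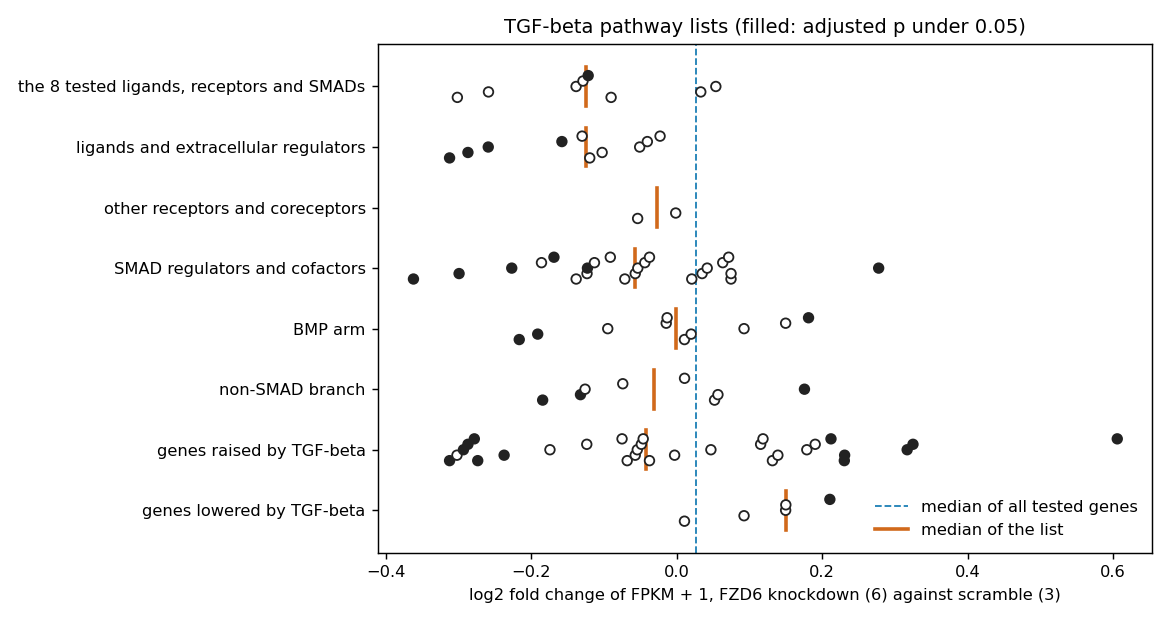
Log2 fold change of FPKM + 1 in knockdown (6 libraries) against scramble (3 libraries) on the horizontal axis for the 8 tested members and 7 pathway lists, one point a gene and filled where the adjusted p is under 0.05. Orange bars are list medians and the dashed line is the median of all tested genes, 0.03. All 10 points of the ligands and extracellular regulators lie below 0 (8 of 10 with shRNA2 alone), and the genes raised by TGF-beta have 6 filled points on either side.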

How the data were processed

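RNA-seq was performed on 9 libraries of DU145 cells (3 per group). The authors made stranded mRNA libraries, aligned reads by STAR and computed FPKM by Cufflinks (versions not given in the sources used here). The deposited tables hold, for each RefSeq transcript, FPKM and its lower and upper bounds. The methods name mm10, but the loci and the submitters' processing notes are hg38. FPKM are scaled for library size and length. Counts were not analysed here, and depth was implied from the bounds of genes with 1 transcript.

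Gene symbols came from a RefSeq table of GRCh38.p14 (72645 of 73240 accessions matched, the other 595 held 0.387% to 0.431% of FPKM), and 42 genes were dropped because an entry lacked the status OK. FPKM were summed per gene, those under a mean of 1 FPKM were not tested, and log2(FPKM + 1) was fitted in R 4.3.3 by limma 3.58.1, with p-values adjusted over all tested genes after Benjamini and Hochberg. Such fold changes understate the change of low genes. Knockdown (6) was compared with scramble (3), and each shRNA with scramble and with the other in a model with 3 groups. The fits were tested on simulated data. Length trends were removed per library by lowess (span 0.3) on GENCODE v29 lengths. Python 3.11.15 with numpy 2.4.6, matplotlib 3.10.9 and pandas 2.3.3 made the tables and plots.

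The members, the lists and the tests were chosen with earlier results of these data known. Genes named are the 9 members, FZD6, the 3 largest rises and falls among called genes of each list, well-known responses (some genes of the lists are not reported here), the gene most like each member, and member transcripts with a mean of at least 1 FPKM. BMP1, GDF11, ACVR1B and ACVR2A were named after their values were seen. Alternatives were no filter on low values or one of 5 FPKM, a pseudocount of 0.1, quantile normalization, centring, length trend removal, the replicate number as a block, primary chromosomes only, protein-coding accessions only, leaving out each library and the study's criteria. No column of values was left out.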

Additional observations from a re-analysis of the deposited data

Results flagged for a closer look

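In each gene the 6 knockdown libraries were checked for 1 that stands apart by Dixon's criterion, which chance meets in about 5% of groups. Of 32 genes looked at, 3 met it, and all 3 did so in replicate 2 of shRNA2. In this library TGFB1 was 60.9 FPKM against 68.9 to 73.1 FPKM in the other knockdown libraries, EP300 was 11.9 FPKM against 9.54 to 10.3 FPKM, and SKIL was 3.00 FPKM against 2.19 to 2.43 FPKM. Why this library differs was not tested.

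The hairpins differed by limma in 4 of the same 32 genes, where 6.71% of all tested genes were called. Many of the 32 were named because they were called in knockdown, so they are not a neutral set. For shRNA2 against shRNA1 the log2 fold change was −0.44 for TGFB2 (adjusted p = 0.00191), −0.19 for CCN2 (adjusted p = 0.0383), −0.16 for TGFBI (adjusted p = 0.0321) and 0.29 for IL11 (adjusted p = 0.00773). Against scramble, CCN2 was at 0.09 with shRNA1 and −0.10 with shRNA2, neither of which was called. FZD6 was also lower with shRNA2 than with shRNA1 (−0.25), and its part in these differences was not tested.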

How the results depend on the processing

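Of 734 single-gene and single-transcript values under an alternative, 672 kept their direction and their side of the threshold, 24 passed it newly, 23 no longer passed it and 15 changed sign. Without 1 library at a time, genes called ranged from 997 to 3255 in knockdown, 917 to 3538 for shRNA1, 2097 to 4195 for shRNA2, and 333 to 1172 between the hairpins, and transcripts from 23 (without replicate 2 of scramble) to 434 (without replicate 2 of shRNA2). Members called then ranged from 0 to 2 in knockdown and from 0 to 3 for shRNA1, with the highest of both without replicate 2 of shRNA2. The study's criteria, applied to log2(FPKM + 1) of the genes tested here, called 361, 450, 590 and 268 genes in these comparisons. They called 0 members in knockdown, 0 for shRNA1 and 1 for shRNA2. These counts differ from the numbers of genes that the study reported from its own processing. With the length trend removed, 1521 genes were called in knockdown, 1510 for shRNA1 and 2925 for shRNA2. Members called were then 3 in knockdown, 2 for shRNA1 and 7 for shRNA2. SMAD2 and SMAD4 were among them as higher each time. With the block and the length trend removed, genes called were 1108, 1327 and 2900 in the same order. Members called were then 2 in knockdown, 2 for shRNA1 and 6 for shRNA2.

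Members called in knockdown were also 2 with centring, 3 with quantile normalization and 2 with protein-coding accessions only, and for shRNA1 were 0 with protein-coding accessions only. Same-numbered libraries deviated together with r of −0.0710 to 0.111, above 0.1 in 1 of 9 pairs. Differently numbered libraries were not compared in this way. Whether a shared number means a shared culture or batch therefore cannot be told from these values. With the replicate number as a block, 0 members were called for shRNA1 and 16 transcripts in knockdown, against 575 transcripts with no filter. Signs changed for values near 0. For shRNA2 against shRNA1, TGFBR1 was −0.00349 with the length trend removed, with or without the block, and −0.064 to 0.044 without 1 library, while TGFBR2 was −0.11 to 0.00209 and SMAD4 −0.073 to 0.022. SMAD4 was −0.012 to 0.062 in knockdown and −0.026 to 0.069 with shRNA2. The transcripts NM_001145102, NM_005359 and NM_004612 were −0.00791 to 0.14, −0.012 to 0.062 and −0.12 to 0.15 in knockdown. The cause was not tested. With 3 libraries per group, the spread between libraries sets the precision, and SMAD7 and INHBA rest on the lowest levels.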
